A study of Arabidopsis thaliana with 42 samples.

Results

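A set of 50 genes of Arabidopsis thaliana held counts in seedlings of the double mutant mtn1-1mtn2-5 and almost none in wild-type (WT) seedlings. They were chosen by measured values: at least 50 counts in each of the 3 mtn1-1mtn2-5 seedling libraries grown with spermidine and at most 10 counts in each of the 6 WT seedling libraries, with AT4G03050 left out. They are 50 of the 37336 genes in the seedling count table, of which 12445 met the WT limit. MTN1 and MTN2 encode methylthioadenosine nucleosidases, which cleave the methylthioadenosine released when spermidine, spermine, nicotianamine and ethylene are made, so that its sulfur and adenine can be reused. The methyl donor S-adenosylmethionine sits upstream of these reactions and also serves the DNA and histone methyltransferases that keep many pseudogenes and transposon remnants silent.

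The study sequenced polyadenylated RNA from 42 libraries. Per the labels, all plants were of the Col-0 accession and grew on diluted MS medium, either alone (mock) or with 100 µM spermidine. The seedlings were 14 days old, with 3 libraries in each of the groups WT mock, WT spermidine, mtn1-1mtn2-1 mock, mtn1-1mtn2-1 spermidine, mtn1-1mtn2-5 mock and mtn1-1mtn2-5 spermidine. Unopened flower buds, with 4 libraries a group, carry the genotype names WT, mtn1-1mtn2-1 and G3, each with mock and spermidine groups; the genotype label of G3 reads mtn1-1mtn2-1 (G3), and no bud library is labelled mtn1-1mtn2-5. Each library came from pooled ground tissue, and no label says whether replicates were separate cultures, so p-values measure the spread between these libraries, which may be technical. By name, both mutants carry the mtn1-1 allele and differ in the mtn2 allele. How often each mutant was crossed to Col-0 is not given in the sources used here.

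Seedling libraries held 134 to 161 M deposited counts (M, 1e+06) and bud libraries 75.3 to 92.6 M. Low counts step by about 3.32 units per fragment in seedlings and 3.92 in buds, so a count of 10 in seedlings and 12 in buds stands for 3 fragments, the floor used below; it covers counting error only. MTN1 (AT4G38800) was 103 ± 2.62 CPM (counts per 1e+06, SD, n = 3) in WT mock seedlings, 5.19 ± 0.827 in mtn1-1mtn2-1 mock and 4.61 ± 0.238 in mtn1-1mtn2-5 spermidine. In mtn1-1mtn2-5 mock it was 4.46, 20.7 and 4.89 CPM in replicates 1, 2 and 3. MTN2 (AT4G34840) was 7.03 ± 0.177 CPM in WT mock, 0.118 ± 0.00950 in mtn1-1mtn2-1 mock and 8.67 ± 0.627 in mtn1-1mtn2-5 mock. With spermidine, MTN2 was 8.18 ± 0.596 CPM in WT and 7.88 ± 0.204 in mtn1-1mtn2-5. The mtn1-1mtn2-5 mock replicate 2 stood apart: of 99 genes with at least 50 counts in every WT library and at most 10 in every mtn1-1mtn2-5 spermidine library, it held 90 above the floor, at a median of 16.5% of their WT mock level, while replicates 1 and 3 held 1 and 2. For that reason the counts of calls between the mock mutants are also given without it. In buds, MTN1 was 88.8 ± 3.04 CPM (SD, n = 4) in the libraries labelled G3 mock and 5.25 ± 0.510 in those labelled WT mock, which goes against these labels, and the deposited TPM table carries the 2 names the other way round. Bud groups are therefore called by their count-table label, and no genotype is read from the bud names WT and G3.

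Among the members, AT5G20750 and AT4G19240 were among the highest of the set. The 250 bases before their annotated starts are shown as examples picked because they differ in CG content. The rule that chose the members fixed that these genes were read in the mutant with spermidine and not in WT. Nothing is therefore read from their shared pattern, and the part of CG methylation in their levels was not tested. CG dinucleotides, the sites of maintenance DNA methylation, are in capitals. The window of AT5G20750 (TAIR10.1, chr5:7027523-7027772, plus strand) holds 9 CG sites, and that of AT4G19240 (chr4:10529093-10529342, minus strand) holds 0. Neither window overlaps an annotated exon of another gene.
AT5G20750: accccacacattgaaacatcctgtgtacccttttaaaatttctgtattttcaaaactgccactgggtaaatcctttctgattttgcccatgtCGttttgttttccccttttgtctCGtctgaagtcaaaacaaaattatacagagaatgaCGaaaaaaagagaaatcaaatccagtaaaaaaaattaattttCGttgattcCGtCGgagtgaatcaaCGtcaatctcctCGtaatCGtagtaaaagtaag
AT4G19240: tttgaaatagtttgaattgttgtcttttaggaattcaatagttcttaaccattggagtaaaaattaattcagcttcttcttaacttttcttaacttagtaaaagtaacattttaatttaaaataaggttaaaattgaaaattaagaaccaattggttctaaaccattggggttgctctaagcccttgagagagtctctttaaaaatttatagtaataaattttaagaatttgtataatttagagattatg

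Across the 50 members such windows held a median of 4 CG sites (0 to 17), beside 5 for the genes that met the WT limit and 5 for all genes. The TATA motif TATAAA, searched on both strands, was in 17 of 50 windows (34.0%), beside 42.0% of the genes that met the WT limit and 44.6% of all genes. The G-box CACGTG was in 0 of 50, beside 2.77% and 5.45%. The W-box core TTGACC was in 1 of 50, beside 10.2% and 11.5%. A match is a description of letters only.

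By gene type, 24 of the 50 are annotated as pseudogenes (48.0%), 6 as long noncoding RNAs and 20 as protein coding. Pseudogenes make up 33.5% of the genes that met the WT limit and 12.9% of all genes in the table. The 6 noncoding RNAs compare with a share of 20.9% among the genes that met the WT limit. Among the protein-coding members, 2 encode pentatricopeptide repeat proteins (AT1G63070 and AT1G63320, of a family that acts on organelle RNA), 1 an F-box protein (AT2G07140), 1 a NAC transcription factor (AT4G01520, NAC067) and 1 a formin (AT4G15200, FH3, an actin nucleator studied in pollen). Others are named for a copper amine oxidase, which oxidizes polyamines (AT4G12280), a phosphorelay mediator (AT4G04402), a MATE efflux protein (AT2G04066) and a mechanosensitive channel-like protein (AT4G00234). Pentatricopeptide repeat genes make up 0.0964% of the genes that met the WT limit and 0.702% of all genes, and F-box genes 3.25% and 1.75%. None of the members is named as a disease resistance gene or a cytochrome P450 gene. These classes make up only 0.0804% and 0.273% of the genes that met the WT limit, so nothing is read from their absence.

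The level of the set was set by few genes. In CPM, which is not corrected for length, AT1G24388, AT5G20750 and AT4G19240 made up 52.7% of the summed level of the members in mtn1-1mtn2-5 mock, and the median member stood at 1.60 CPM. Per length, in the TPM table, which lists 48 of the 50, AT1G24388 was the highest at 209 ± 24.3 TPM (SD, n = 3), then AT4G19240 at 46.7 ± 6.61, AT4G04402 at 34.4 ± 3.75, AT5G20750 at 21.7 ± 2.54 and AT4G19239 at 17.5 ± 2.29. The first 4 of these differ from each other by more than their SDs, while AT5G20750 and AT4G19239 overlap within theirs. Of the 48, 8 had at least 10 TPM and 19 had under 1 TPM.

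The 3 leading members were at hand in every mtn1-1mtn2-5 library. AT1G24388, an uncharacterized short gene, had 8875, 6952 and 7481 counts in mtn1-1mtn2-5 mock, 8026, 7995 and 9689 with spermidine, 0, 0 and 3 in WT mock, and at most 4 in mtn1-1mtn2-1. AT5G20750, annotated as a pseudogene, had 4898, 5198 and 5524 counts in mtn1-1mtn2-5 mock, and 4, 7 and 4 in mtn1-1mtn2-1 mock, about the worth of 1 or 2 fragments. AT4G19240, also uncharacterized, had 4563, 4698 and 5497 counts in mtn1-1mtn2-5 mock and 0 in all 12 libraries of WT and mtn1-1mtn2-1. The groups do not overlap for any of the 3, which the rule fixed between mtn1-1mtn2-5 spermidine and WT.

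Further members stood near 10 CPM or somewhat below. AT1G63540 was 12.3, 8.04 and 10.97 CPM in mtn1-1mtn2-5 mock and 11.3, 9.84 and 11.4 with spermidine. AT1G27570, named for phosphatidylinositol 3- and 4-kinases, was 9.62, 10.7 and 10.6 CPM and then 12.1, 11.7 and 11.3, with 0 in every WT and mtn1-1mtn2-1 library. AT4G04402, named for a mediator that passes phosphate in phosphorelay signalling, was 8.72, 5.71 and 6.98 CPM and then 6.63, 6.86 and 7.01, with 0 in the same 12 libraries. The spread among the 6 mtn1-1mtn2-5 libraries stayed under 2-fold for each of these.

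The transcription factor gene NAC067 was lower, at 1.90, 1.15 and 1.21 CPM in mtn1-1mtn2-5 mock and 1.164, 1.402 and 1.054 with spermidine, with 0 in WT and mtn1-1mtn2-1. DRP4D (AT1G60510), a pseudogene of the dynamin-related proteins, which pinch membranes, was 2.004, 1.471 and 1.349 CPM and then 0.985, 1.29 and 0.637. The pentatricopeptide repeat gene AT1G63070 was 1.18, 1.14 and 1.33 CPM and then 1.271, 1.373 and 1.495. For all 3 of these genes the mtn1-1mtn2-5 libraries lay above every WT and mtn1-1mtn2-1 library. The rule fixed this for the spermidine libraries of mtn1-1mtn2-5 against WT.

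**Figure D1:**
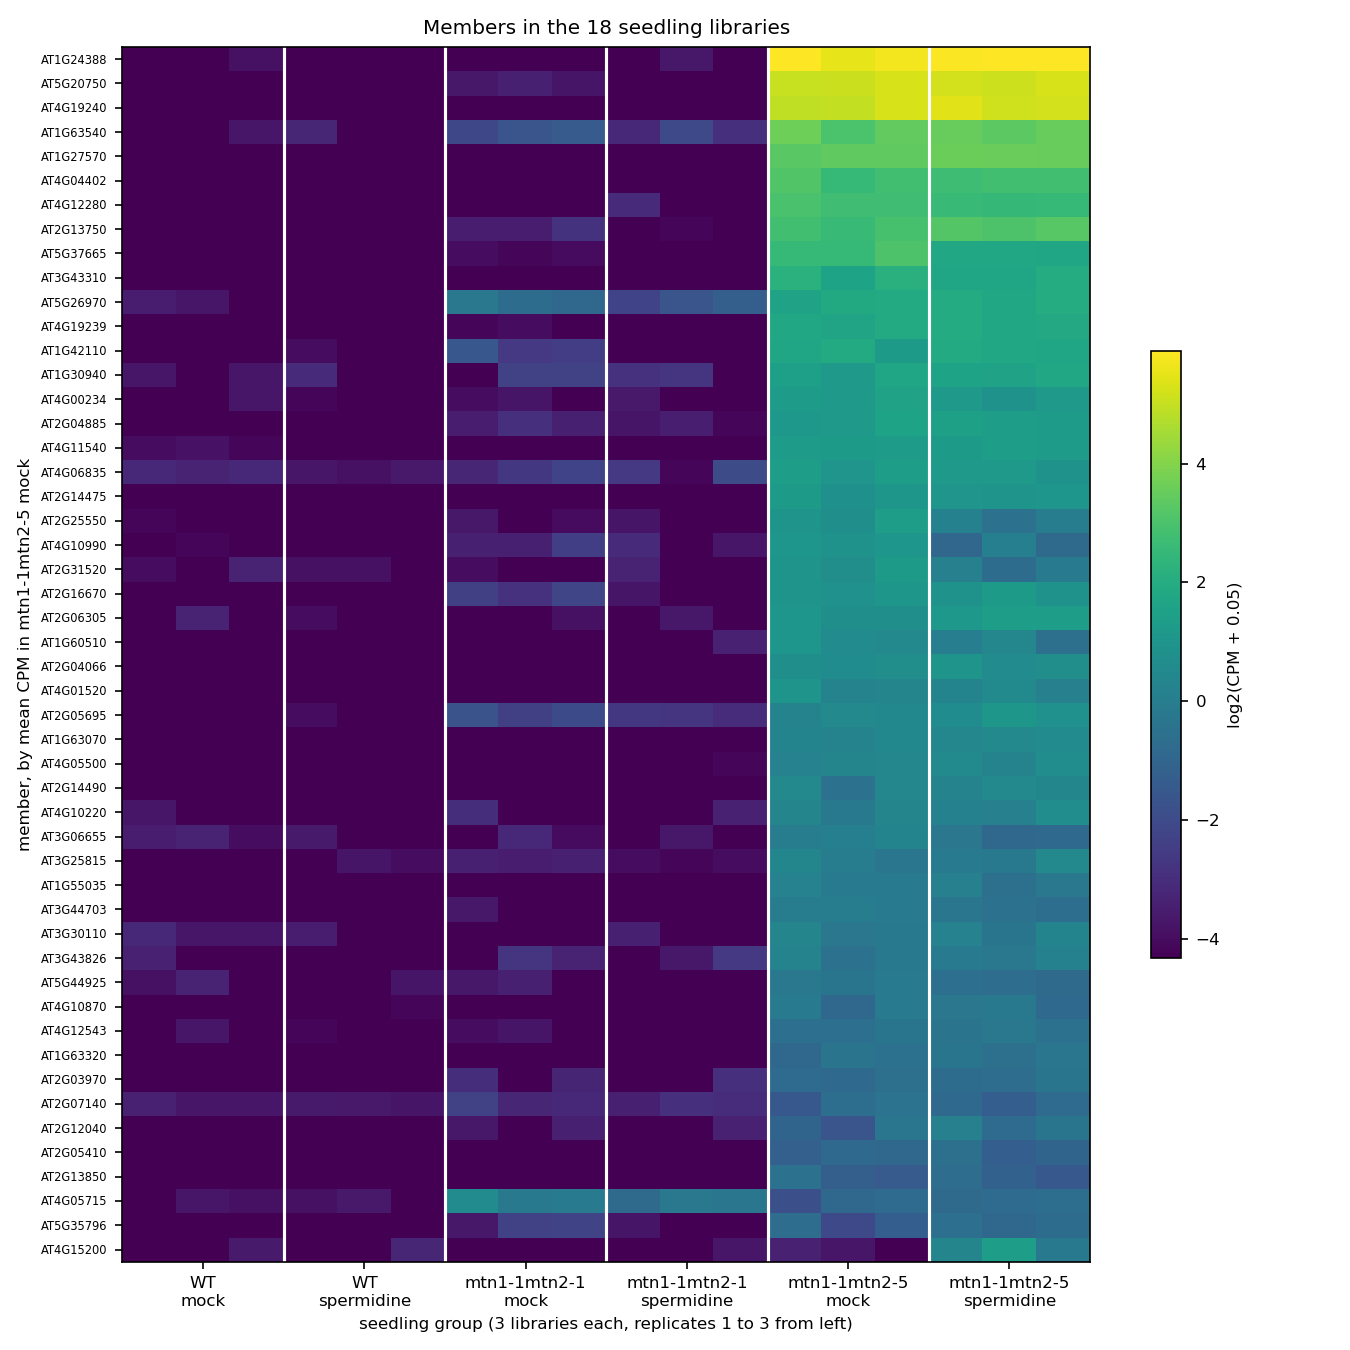
Level of each of the 50 members (rows, ordered by mean CPM in mtn1-1mtn2-5 mock) in the 18 seedling libraries (columns, 3 a group), as log2(CPM + 0.05). The 6 mtn1-1mtn2-5 columns on the right are bright and the 6 WT columns dark, which the rule fixed for 9 of them; AT4G05715 and AT5G26970 also stand out in mtn1-1mtn2-1, and AT4G15200 is dark in mtn1-1mtn2-5 mock.

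At the edges of the rule, the lowest minimum in mtn1-1mtn2-5 spermidine among members was 50 counts for AT2G07140 and AT2G13850 and 51 for AT2G05410, and the genes just outside were AT1G34440 (48), AT4G10410 (46) and AT3G09510 (44). For the WT limit, AT1G30940, AT3G30110 and AT4G06835 reached 10 counts, and AT1G36620 and AT3G31023 (11 each) and AT1G66990 (13) lay outside. The same limits with mtn1-1mtn2-1 spermidine in place of mtn1-1mtn2-5 spermidine gave 25 genes, of which 1 is a member, and with mtn1-1mtn2-1 mock 97, of which 2 are members. Taken the other way, at least 50 counts in every WT library and at most 10 in the spermidine libraries of a mutant, 99 genes were found for mtn1-1mtn2-5 and 0 for mtn1-1mtn2-1.

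The members were not tied to the spermidine medium on which they were chosen. In mtn1-1mtn2-5 mock, which the rule did not use, 49 of 50 were above the floor in all 3 libraries and 44 had at least 50 counts in each. The ratio of the mean with spermidine to the mean without lay between 0.5-fold and 2-fold for 46 members. Lower with spermidine were AT4G10990 (ratio 0.345), AT2G31520 (0.426) and AT2G25550 (0.442), given as values with no test because the spermidine libraries chose them. In mock replicate 2 the members stood at a median of 0.878 times the mean of replicates 1 and 3, and it was the lowest of the 3 for 30 members. FH3 was the member that the mock libraries lacked: it had 7, 4 and 0 counts in mtn1-1mtn2-5 mock and 169, 362 and 135 with spermidine. Beside this, 8 floral markers summed to 3.87 to 4.51 CPM in mtn1-1mtn2-5 mock and 4.39 to 4.84 CPM with spermidine, and to 2.73 to 6.39 CPM in WT mock and 6.34 to 7.96 in WT spermidine. Between mtn1-1mtn2-5 mock and spermidine, the means of AG (0.389 ± 0.0939 and 0.699 ± 0.272 CPM), LFY (0.0710 ± 0.0775 and 0.139 ± 0.0577) and SEP3 (2.49 ± 0.453 and 2.85 ± 0.225) were higher with spermidine, and those of PI, AP3, AMS and AP1 lower (SD, n = 3). SPL, needed for sporogenous cells, was at 0 CPM in all seedling libraries. The part of floral tissue in the FH3 level was not tested. Of 15 markers of leaf, root and flower, 13 could be tested between the mock mutants, and 2 were called higher in mtn1-1mtn2-5 (the leaf gene LHCB1.1 and the root gene COBL9) and 0 lower, while without mtn1-1mtn2-5 mock replicate 2 neither was called; their part in the members' levels was not tested.

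By locus identifier the members lie on all 5 chromosomes: 9 on chromosome 1, 15 on chromosome 2, 6 on chromosome 3, 15 on chromosome 4 and 5 on chromosome 5. Chromosomes 2 and 4 hold 30.0% of the members each, beside 18.7% and 15.9% of the genes that met the WT limit and 16.6% and 15.4% of all genes. Within chromosomes the members leave long stretches empty (TAIR10.1 positions). They lie between 8.65 and 23.6 Mb of chromosome 1, 1.25 and 13.4 Mb of chromosome 2, 9.43 and 16.2 Mb of chromosome 3, 0.101 and 10.5 Mb of chromosome 4, and 7.03 and 18.1 Mb of chromosome 5. On chromosome 4 none of the 15 lies beyond 10.5 Mb, while the last annotated gene of the table ends at 18.6 Mb. In blocks of 10000 locus numbers, AT4G10000 holds 9 members among 1274 genes, 308 of which met the WT limit. AT2G00000 holds 7, and AT2G10000 and AT4G00000 hold 6 each, but among 1029, 696 and 1277 genes that met this limit. Locus numbers mislead for 5 noncoding members with late-assigned identifiers (AT2G05695, AT2G06305, AT3G06655, AT4G05715 and AT4G06835): AT3G06655, by its number near the top of chromosome 3, starts at position 15612537, among genes whose numbers on that chromosome are around 43715.

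Few members are neighbours. Only 3 pairs, 6 members, have fewer than 10 genes between them. AT2G14475 and AT2G14490, both pseudogenes, overlap by 43 bases, and AT4G19239 and AT4G19240 are 23 bases apart, so reads at their ends could be assigned to either. AT2G13750 and AT2G13850 have 9 genes between them. The levels within pairs differ: AT4G19240 was 33.4 ± 4.38 CPM and AT4G19239 3.43 ± 0.365 in mtn1-1mtn2-5 mock (SD, n = 3).

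The comparison of mtn1-1mtn2-5 mock with mtn1-1mtn2-1 mock uses no library of the rule and asks how the 2 mutants differ at these genes. Here 27.7% of the 25201 genes tested were called at adjusted p under 0.05 (edgeR quasi-likelihood F test, Benjamini-Hochberg over all genes), 13.1% higher and 14.6% lower in mtn1-1mtn2-5. Of the members, 47 of 50 were called higher and 0 lower, and 49 had an unadjusted p under 0.05. The median log2 fold change was 7.74 over the members and -0.01 over all genes tested. For 48 members every mtn1-1mtn2-5 mock library was above every mtn1-1mtn2-1 mock library. The shares of all genes with an unadjusted p under 0.05 or without overlap were not counted. All 50 passed the filter on low counts, but most did so through mtn1-1mtn2-5, the genotype that chose them, so these counts describe the set and give no independent support. Without mtn1-1mtn2-5 mock replicate 2, 46 members were called higher, beside 21.6% of all genes in either direction.

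In mtn1-1mtn2-1 mock, 34 members had at most 10 counts in all 3 libraries, and 33 of these were above the floor in mtn1-1mtn2-5 mock; for these the fold was taken against the floor. Against a floor of 0.0705 CPM (3 fragments in a library), AT1G24388 was at least 747-fold higher, AT4G19240 at least 474-fold, AT1G27570, a phosphatidylinositol kinase family gene, at least 146-fold and AT4G04402 at least 101-fold; these 4 were at 0 in mtn1-1mtn2-1 mock. The lowest value against the floor was 6.55-fold. Among the 16 above the floor in at least 1 mtn1-1mtn2-1 mock library, the pseudogene AT2G13750 had 5, 6 and 15 counts against 1044, 880 and 1092 in mtn1-1mtn2-5 mock, and AT1G63540, a hydroxyproline-rich glycoprotein family gene, was 39.6-fold higher. With every mtn1-1mtn2-1 mean under the floor raised to it, the median fold over the 49 members that allow one was 17.7, and 18.7 without mtn1-1mtn2-5 mock replicate 2.

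**Figure D2:**
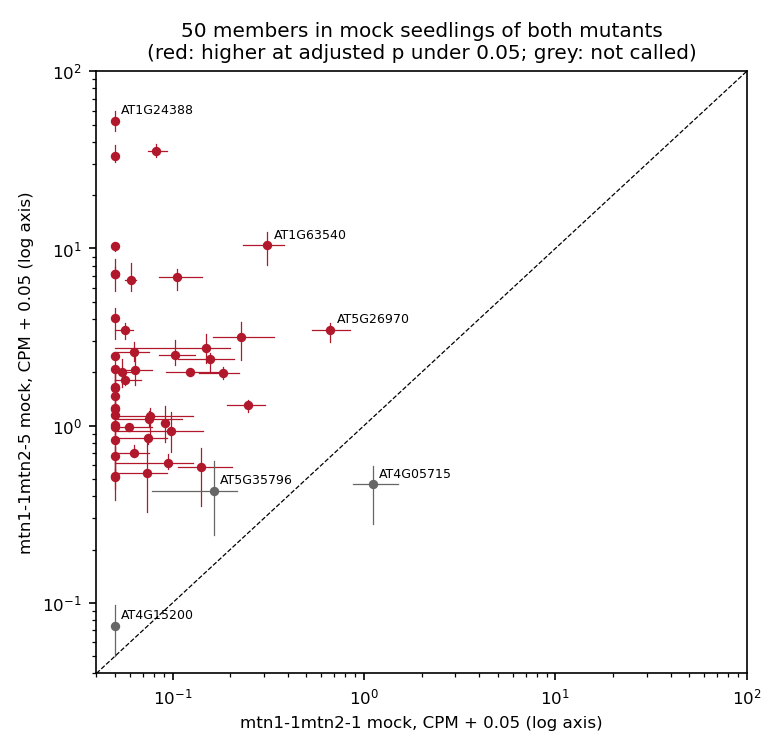
Mean CPM of each of the 50 members in mtn1-1mtn2-5 mock (vertical) against mtn1-1mtn2-1 mock (horizontal), 0.05 added, both axes logarithmic; lines span the 3 libraries and the dashed line marks equal levels. The 47 members called higher are red and lie above the line, and of the 3 grey ones AT4G05715 lies below it.

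The description "on only in mtn1-1mtn2-5" held for most members and not for all. In mtn1-1mtn2-1, 6 members were above the floor in every mock library and 3 in every spermidine library. The noncoding RNA AT4G05715 had 208, 132 and 145 counts in mtn1-1mtn2-1 mock, 85, 115 and 116 with spermidine, and 34, 73 and 78 in mtn1-1mtn2-5 mock, beside at most 5 in WT. Its mean was lower in mtn1-1mtn2-5 mock than in mtn1-1mtn2-1 mock (0.419 ± 0.167 and 1.06 ± 0.352 CPM, SD, n = 3). The log2 fold change was -1.34 with a standard error of 0.50, and its edgeR adjusted p of 0.0575 missed the threshold. Over the alternatives the adjusted p ran from 0.000662 to 0.209, and it passed under 4 of them (DESeq2, limma on TPM, the 2 groups alone, and counts per fragment). AT5G26970, an uncharacterized gene, had 113, 91 and 79 counts in mtn1-1mtn2-1 mock and 435, 556 and 533 in mtn1-1mtn2-5 mock, 5.58-fold more (adjusted p = 0.000308, edgeR). AT1G63540 had 26, 44 and 54 counts in mtn1-1mtn2-1 mock against 1828, 1218 and 1569. The noncoding RNA AT2G05695 had 36, 23 and 32 against 169, 205 and 186.

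The pseudogene AT5G35796 and FH3 were the others not called. AT5G35796 was 0.380 CPM in mtn1-1mtn2-5 mock and 0.115 in mtn1-1mtn2-1 mock (adjusted p = 0.125, edgeR). FH3 was at or under the floor in both groups, so no fold is given (adjusted p = 0.155, edgeR).

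No member passed the threshold for a difference between spermidine and mock in mtn1-1mtn2-1. With edgeR, 0 of the 25201 genes (0% of those tested) and 0 of the 50 members were called. An unadjusted p under 0.05 was reached by 15 members, and the share over all genes was not counted. At or under the floor in every library were 34 members in mtn1-1mtn2-1 mock and 39 with spermidine, so nothing is read from these 15. DESeq2 called 4 members lower with spermidine (AT1G42110, AT2G16670, AT5G20750 and AT5G26970), and limma on log2(TPM + 1) called AT5G26970. Without mtn1-1mtn2-1 spermidine replicate 3, edgeR called 34 genes, among them AT1G42110, which had 41, 18 and 21 counts in mock and 0 in all 3 spermidine libraries. The summed level of the members was 3.88, 2.99 and 3.28 CPM in mtn1-1mtn2-1 mock and 1.47, 1.72 and 1.97 with spermidine. In mtn1-1mtn2-5 mock the sum was 237, 209 and 245 CPM. A large part of the mtn1-1mtn2-1 mock sum came from AT4G05715 (1.47, 0.824 and 0.891 CPM) and AT5G26970 (0.796, 0.568 and 0.485). The sum therefore does not describe the set in mtn1-1mtn2-1, and no test was made on it. In bulk tissue, fewer cells that express a gene and less RNA per cell cannot be told apart. AT5G26970 had 113, 91 and 79 counts in mock and 25, 39 and 58 with spermidine (adjusted p = 0.515, edgeR).

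Around the members, other genes were called between the mutants at a higher share than elsewhere, given as a description with no test. In 1-Mb windows that hold a member (31 windows, 5306 tested non-members), 35.6% were called in the comparison of the mock mutants, beside 25.4% of 19635 in the 90 windows that hold none. Among protein-coding genes alone the shares were 34.0% and 25.6%. On chromosome 4 they were 41.0% and 27.0%, on chromosome 3 38.9% and 25.5%, on chromosome 2 36.0% and 24.5%, and on chromosome 1 35.4% and 26.5%. On chromosome 5, with 5 member windows, 194 of 807 and 1170 of 4881 were called, nearly the same share. Without mtn1-1mtn2-5 mock replicate 2 the shares over all chromosomes were 29.6% and 19.2%, and 28.1% and 19.2% among protein-coding genes. In windows of 5 Mb the share of non-members called ran from 22.0% (first window of chromosome 1) to 46.1% (first window of chromosome 4), with 44.9% from 10 to 15 Mb of chromosome 3, 40.9% from 5 to 10 Mb of chromosome 4 and 39.3% from 20 to 25 Mb of chromosome 1. Among called non-members, those at least 32-fold lower outnumbered those 32-fold higher in the member windows (159 against 45) and in the others (165 against 35). The member windows also hold the members, of which 47 were called higher and 0 lower. Leaving these out took genes from the higher side only. Position and gene type move together along these chromosomes, and their parts were not tested.

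**Figure D3:**
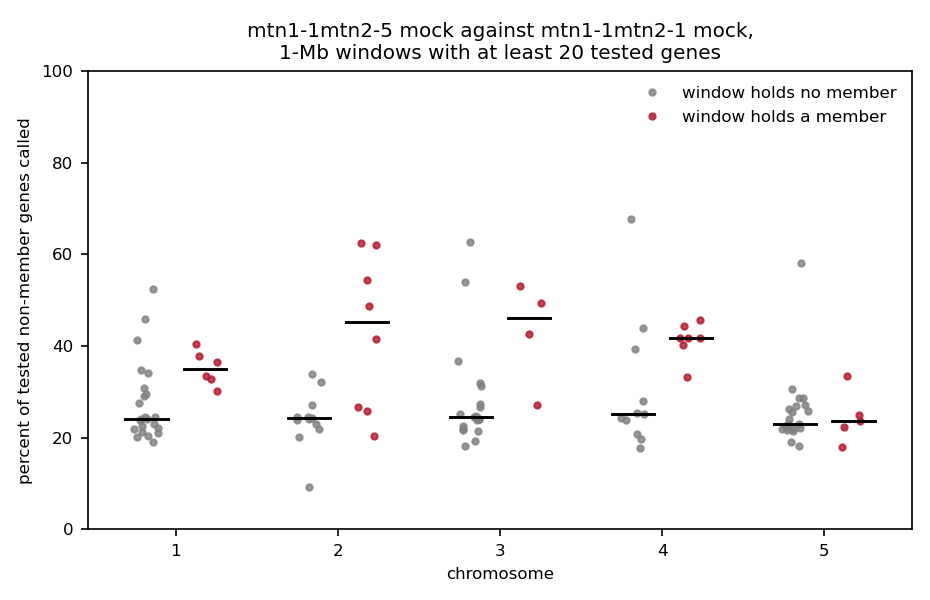
Percent of tested non-member genes called between mtn1-1mtn2-5 mock and mtn1-1mtn2-1 mock in each 1-Mb window with at least 20 tested genes, by chromosome; red points are windows that hold a member, grey points those that hold none, and black lines medians. Red medians lie above grey ones on chromosomes 1 to 4, and on chromosome 5 they are close.

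A further question is whether mtn1-1mtn2-5 differs from WT by accession background. It was approached with 30 genes known to differ between Arabidopsis accessions in sequence, presence or expression, none of them a member. This list and the DNA methylation list below were drawn up with earlier results of these data known. Their shares of calls are therefore a description and give no independent support. In the same comparison 17 of the 30 were called, 5 higher and 12 lower, beside 27.7% of all genes. Without mtn1-1mtn2-5 mock replicate 2, 15 were called, 4 higher and 11 lower, beside 21.6% of all genes; PAI2 and HISN6B were then not called. ESP (AT1G54040), the epithiospecifier protein that directs glucosinolate breakdown, was 2015, 1353 and 1767 CPM in mtn1-1mtn2-5 mock and 1736, 2269 and 1974 with spermidine, while none of the 12 libraries of WT and mtn1-1mtn2-1 exceeded 18.8. Its log2 fold change over mtn1-1mtn2-1 was 6.88 (SE 0.25, adjusted p = 1.78e-10, edgeR). AOP2 (AT4G03060), which converts glucosinolate side chains to alkenyl forms, was 0.521 ± 0.677 CPM (SD, n = 3) in mtn1-1mtn2-5 mock against 17.3, 14.2 and 11.8 in mtn1-1mtn2-1 mock and 8.90, 8.55 and 5.57 in WT mock. FRI (AT4G00650), a flowering regulator, was 1.33, 2.67 and 1.47 CPM in mtn1-1mtn2-5 mock against 7.45, 7.67 and 8.07 in mtn1-1mtn2-1 mock and 8.41, 7.69 and 8.67 in WT mock. For AOP2 and FRI, mtn1-1mtn2-5 mock replicate 2 was the highest of the 3, and the mean of the other 2 was 0.131 CPM for AOP2 and 1.403 for FRI.

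The disease resistance genes SNC1, RPP4 and RPP13 were also lower, at 45.9 ± 17.8, 32.2 ± 11.5 and 47.4 ± 3.14 CPM in mtn1-1mtn2-5 mock, beside 210 ± 12.1, 107 ± 15.0 and 98.5 ± 4.51 in mtn1-1mtn2-1 mock and 180 ± 13.6, 105 ± 9.43 and 91.4 ± 8.27 in WT mock (SD, n = 3). ACD6, a regulator of defence, was 33.5 ± 2.09 CPM against 134 ± 47.0 and 165 ± 49.1. In these cases mtn1-1mtn2-1 lay near WT and mtn1-1mtn2-5 apart. FLC, the floral repressor, differed in another way: it was 1.77 ± 0.288 CPM in WT mock, 9.96 ± 0.459 in mtn1-1mtn2-1 mock and 14.2 ± 1.98 in mtn1-1mtn2-5 mock. Of the list, 13 genes were not called, among them RPM1, RPP8, MAM1 and ERECTA. The labels name Col-0 for all groups, and no sequence of the samples is at hand. Background and the mtn2-5 allele cannot be told apart here, and what part background has in the members was not tested. Linkage to MTN2 (AT4G34840) was not tested either. The block of locus numbers in which MTN2 falls, AT4G30000, holds 0 members among 1144 genes, but only 142 of these met the WT limit. The block before it, AT4G20000, also holds 0, among 235 that met the limit. With so few genes that could be members, nothing on linkage is read from this.

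**Figure D4:**
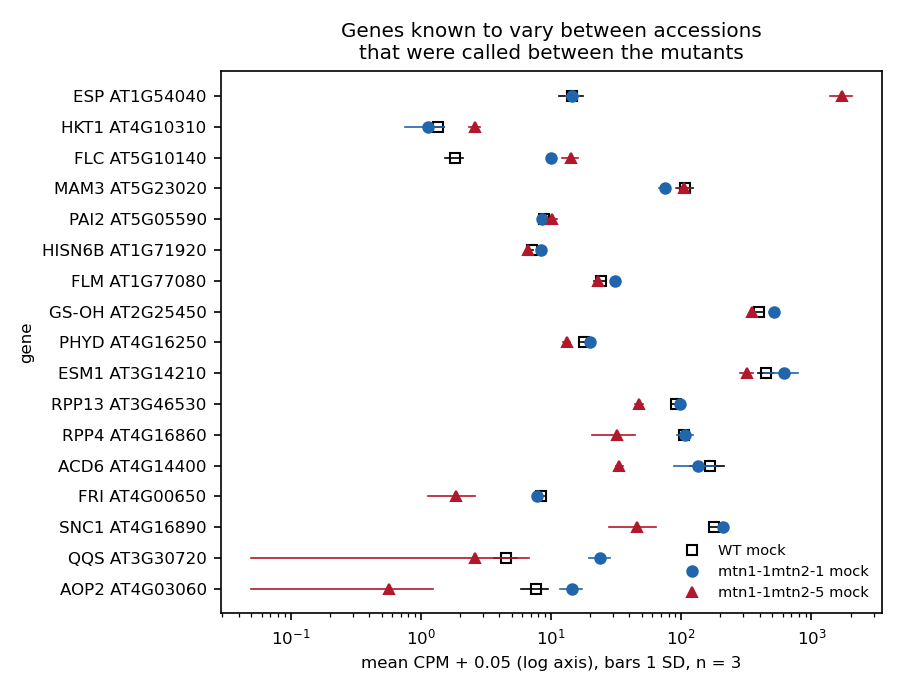
Mean level (CPM + 0.05, logarithmic axis, bars 1 SD, n = 3) of the 17 genes of the accession-variable list called between the mutants, in WT mock (open squares), mtn1-1mtn2-1 mock (blue circles) and mtn1-1mtn2-5 mock (red triangles). Bars that would pass below 0.05 end there. ESP is far higher in mtn1-1mtn2-5, and AOP2, FRI, SNC1 and ACD6 are lower than in both other groups.

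Of the 14 tested genes of the DNA methylation list, 4 were called higher and 1 lower in mtn1-1mtn2-5 mock (35.7%, beside 27.7% of all genes), and without mtn1-1mtn2-5 mock replicate 2 also 4 and 1. The maintenance methyltransferase MET1 was 48.6 ± 2.62 CPM in mtn1-1mtn2-5 mock, 37.7 ± 2.60 in mtn1-1mtn2-1 mock and 51.0 ± 1.92 in WT mock, and CMT3, which methylates CHG sites, was 24.5 ± 1.49, 18.3 ± 0.924 and 27.4 ± 0.722. CMT2 and KYP were the other genes called higher. The gene called lower was QQS, which is also on the accession list. It was 0.121, 7.44 and 0.168 CPM in mtn1-1mtn2-5 mock, 23.9 ± 4.44 in mtn1-1mtn2-1 mock and 4.49 ± 0.893 in WT mock (SD, n = 3). Its mtn1-1mtn2-1 mean was thus above WT, and replicate 2 carried nearly all of the mtn1-1mtn2-5 mock level. The silent gene FWA stayed under 0.05 CPM on average in the 3 mock seedling groups. For MET1 and CMT3 the mtn1-1mtn2-1 mean was the lowest of the 3 groups.

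Sequence likeness bears on what the counts of the members mean. Each of the 50 had a similar annotated gene elsewhere (blastn of exon sequences, E value at most 1e-05), against 79.5% of the genes that met the WT limit. No minimum length was set. The aligned part ran from 7.10% of the member's exons (AT3G44703) to 100% (AT4G10220), so some likenesses are short. For 16 of the 50 the nearest lay within 10 genes on the same chromosome, beside 15.2% of the genes that met the WT limit, and for 10 of the 50 the identity over the aligned stretch was at least 95%, beside 17.5%. AT2G25550, AT2G31520 and AT5G37665 are nearly one sequence (99.4% and 99.8% identity in the aligned stretches), so their reads can be assigned to any of them, and their similar profiles are 1 observation rather than 3. Another 25 members had no other copy in the genome at 90% identity over 100 bases. AT2G04066 is identical over 69.2% of its exons to AT2G04080, which was 10.3 CPM in WT mock and 11.6 in mtn1-1mtn2-5 mock.

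The copper amine oxidase AT4G12280 shows such a pair. It had 0 CPM in all 6 WT libraries and 7.83, 6.66 and 6.81 CPM in mtn1-1mtn2-5 mock. Its neighbour AT4G12290, 89.1% identical over 75.4% of the exons of AT4G12280, was 17.7 CPM in WT mock, 31.3 in mtn1-1mtn2-1 mock and 16.7 in mtn1-1mtn2-5 mock. The stretches below are 90 bases in an exon of each gene (TAIR10.1, chr4:7302132-7302221 and chr4:7306118-7306207, plus strand). They were picked as the 90 gap-free bases with the most differences, so they are not typical of the alignment. The 89.1% above is the identity over all of it. The 14 differing bases are in capitals.
AT4G12280: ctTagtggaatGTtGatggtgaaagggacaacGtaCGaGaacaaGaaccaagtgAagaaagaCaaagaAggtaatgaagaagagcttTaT
AT4G12290: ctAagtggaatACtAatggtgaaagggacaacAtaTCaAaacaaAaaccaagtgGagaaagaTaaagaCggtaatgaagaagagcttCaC

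Of the similar genes that are not members, 31 were tested, and 6 were called higher and 7 lower in mtn1-1mtn2-5 mock (41.9%, beside 27.7% of all genes), and 6 and 6 without mtn1-1mtn2-5 mock replicate 2. AT2G14878, similar to the noncoding member AT2G04885, was 33.1 CPM in WT mock, 39.4 in mtn1-1mtn2-1 mock and 2.29 in mtn1-1mtn2-5 mock (log2 fold change -4.10, adjusted p = 4.12e-06, edgeR). AT3G29776, similar to the pseudogene AT2G16670, was 2.79, 4.22 and 0.145 CPM in the same groups. In both cases the member was high in mtn1-1mtn2-5 where its similar gene was low. Annotations of other genes overlap 9 members, 6 of them on the opposite strand, and the strand setting of the counting is not given in the sources used here. Over 444 bases AT4G12543 shares its place with AT4G12545 on the other strand, which was 12.4 CPM in mtn1-1mtn2-1 mock and 31.2 in mtn1-1mtn2-5 mock.

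In buds, about as many members were read as were not. No bud library passed the floor for 26 members, all 24 passed it for 8, and some did for 16. Not above the floor in any bud library were AT1G24388 (at most 8 counts), AT5G20750 (at most 6) and AT1G27570 (0), and AT4G19240 passed the floor in 1 library with 20 counts. The summed level of the members was 11.3 to 26.3 CPM in buds, between the 0.123 to 0.401 CPM of WT seedlings and the 209 to 246 of mtn1-1mtn2-5 seedlings. FH3 was the highest member in buds in CPM, at 9.89 ± 2.36 in labelled G3 mock, 4.30 ± 1.26 in labelled WT mock and 2.39 ± 0.549 in labelled mtn1-1mtn2-1 mock (SD, n = 4). AT2G14475, AT3G44703 and AT2G14490 came next; AT2G14475, a pseudogene at 0 in all WT and mtn1-1mtn2-1 seedlings, was 2.29 ± 0.596, 1.79 ± 0.383 and 2.29 ± 0.458 CPM in the same 3 bud groups. These members are thus read in buds of every label.

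The bud fits tested 20 of the 50, since 30 fell under the filter on low counts. Between labelled G3 mock and labelled WT mock, 29.5% of all 25730 genes were called (14.6% higher, 14.9% lower), and 3 members were higher (AT2G14490, AT3G44703 and AT4G15200) and 4 lower (AT1G63540, AT4G05500, AT4G05715 and AT5G26970). For AT1G63540 both of these groups were at or under the floor in every library, so no fold is read from that call. Between labelled mtn1-1mtn2-1 mock and labelled WT mock, 20.7% were called (9.09% higher, 11.6% lower), with 1 member higher (AT1G63540) and 2 lower (AT3G44703 and AT4G15200). Between labelled G3 mock and labelled mtn1-1mtn2-1 mock, 32.9% were called (16.8% higher, 16.2% lower), with 2 members higher (AT3G44703 and AT4G15200) and 4 lower (AT1G63540, AT4G05500, AT4G05715 and AT5G26970). These comparisons share libraries. With the names of the TPM table the first comparison reverses for all 7 of its members, and the other 2 change places with the sign turned.

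Of these, AT4G05715, AT5G26970 and AT1G63540 are also the members that were highest in mtn1-1mtn2-1 seedlings. They are described because they stand in both groups, and nothing about the set is read from them. The calls of members in buds lay near the shares over all genes. AT2G05695, the next highest in mtn1-1mtn2-1 seedlings, was not called in buds. AT4G05500, also called lower under the label G3, had 0 counts in mtn1-1mtn2-1 mock seedlings. AT4G05715 had 0, 3, 0 and 0 counts in labelled G3 mock buds, 24, 38, 31 and 60 in labelled WT mock and 70, 101, 59 and 77 in labelled mtn1-1mtn2-1 mock. Its log2 fold change for labelled G3 against labelled mtn1-1mtn2-1 was -6.48 (SE 0.87, adjusted p = 7.43e-06, edgeR), a fitted value against a group at the floor and so no bound. AT5G26970 had 5, 0, 0 and 0 counts, then 33, 4, 8 and 8, then 33, 27, 64 and 65. AT1G63540 had 0 in all 4 libraries, then 5, 4, 0 and 8, then 16 to 33. By mean, the bud group with MTN1 at 88.8 CPM was the lowest and labelled mtn1-1mtn2-1 the highest for all 3, and for AT4G05715 the 3 groups do not overlap in CPM. For AT5G26970 labelled WT overlaps with both of the other groups, and for AT1G63540 labelled WT overlaps with labelled G3 at 0.

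**Figure D5:**
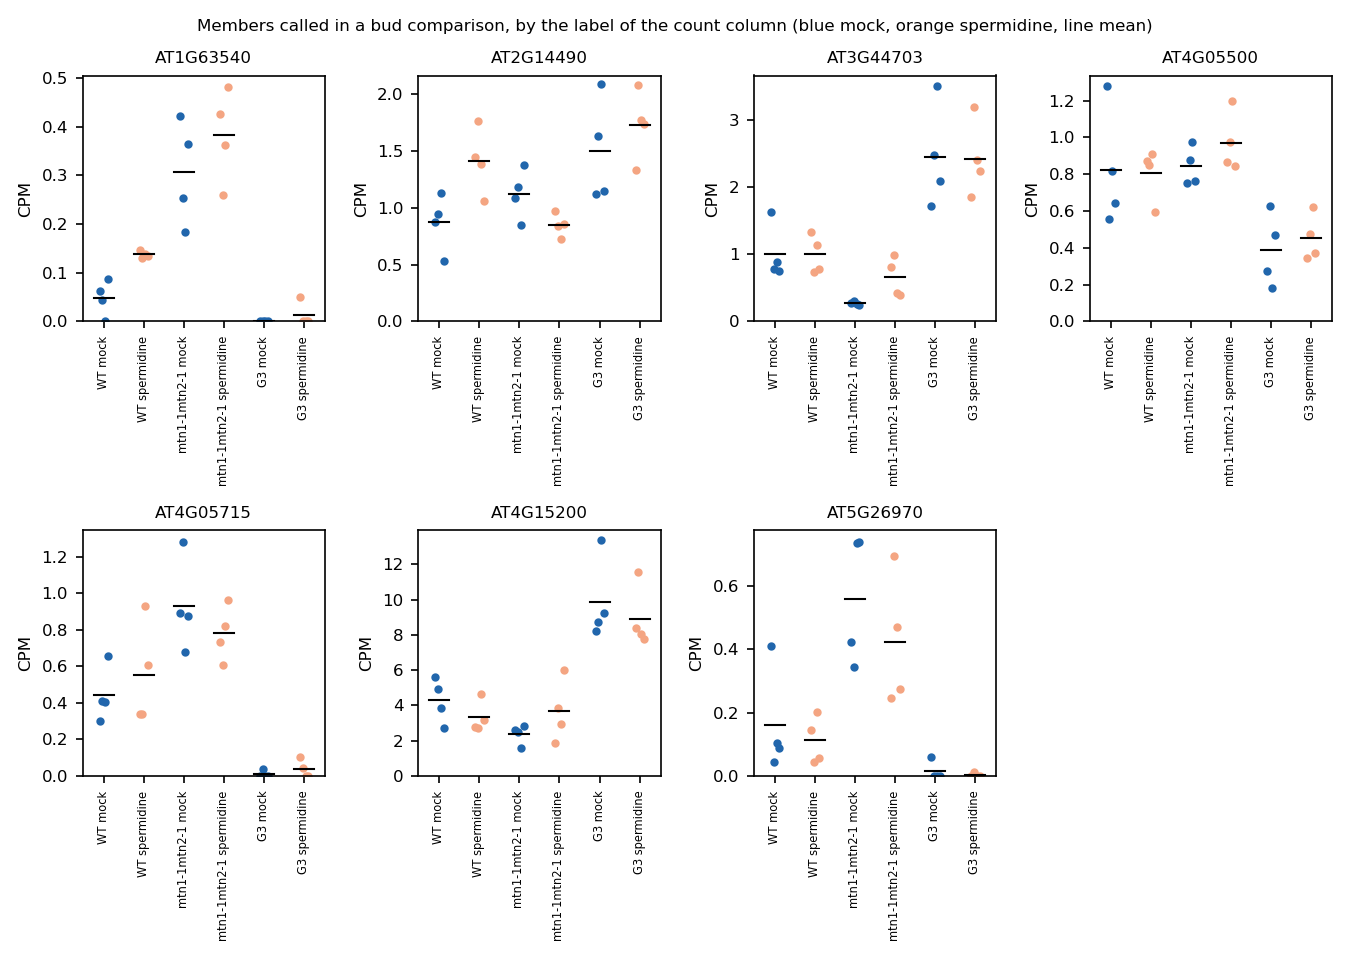
CPM of the 7 members called in a bud comparison, in the 24 bud libraries by the label of their count column (4 a group; blue mock, orange spermidine; lines are means). AT4G05715, AT5G26970 and AT1G63540 lie near 0 under the label G3, where AT3G44703 and AT4G15200 are highest.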

How the data were processed

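Polyadenylated RNA was measured in 18 seedling and 24 bud libraries. Per the submitters' processing notes, reads were processed with Trim Galore, STAR and StringTie on build TAIR10; versions, roles and strand setting are not given in the sources used here. The deposited count tables hold whole-number expected counts per gene, not scaled by the authors, and the deposited tables of TPM were scaled by the authors for gene length and library total. Seedling totals of 134 to 161 M counts stand for 40.4 to 48.5 M fragments and bud totals of 75.3 to 92.6 M for 19.2 to 23.6 M. Samples were grouped by the labels; 0 value columns were left without a sample, and 0 pairs of libraries were identical.

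The members, gene lists and rule for named genes were chosen with earlier results of these data known. Named are the 12 highest members in mtn1-1mtn2-5 mock, the 4 highest in mtn1-1mtn2-1, the 4 highest in buds, the 4 with the widest spread in mtn1-1mtn2-5, those with a symbol, a class or another member within 10 genes, the genes at the edges of the rule, and MTN1 and MTN2; other members are named after seeing their values. Each tissue was fitted with edgeR 4.0.16 (R 4.3.3): 6 groups in 1 model, filterByExpr, TMM, quasi-likelihood F test, Benjamini-Hochberg adjustment over all genes, calls at adjusted p under 0.05. Seedlings left 25201 genes and buds 25730. CPM uses TMM-scaled totals. DESeq2 1.42.0 and limma 3.58.1 (log2(TPM + 1)) served as alternatives. Counts without mtn1-1mtn2-5 mock replicate 2 for lists and windows were added after the data were seen. The steps were tested on simulated counts. Replicate numbers did not pair samples: correlations of deviations ran from -0.13 to 0.09.

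Positions and sequences are from RefSeq's TAIR10.1, whose gene table held 37039 of the 37336 genes. Similar genes were sought with blastn 2.17.0 on exon sequences, chosen after the data were seen, in place of a comparison of proteins.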

Additional observations from a re-analysis of the deposited data

Results flagged for a closer look

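In groups of 4 bud libraries, 1 library lay far from the other 3 in 8 of 48 groups looked at for 8 members. The outlier limit is set to flag about 1 in 20 groups of normally spread values, which low counts are not. A single count beside 3 libraries at 0 is always flagged, and a group at 0 throughout cannot be. Of the 8 flagged, 4 are single low counts beside 3 libraries at 0: AT1G63540 in labelled G3 spermidine replicate 1 (0.0512 CPM), AT4G05715 in labelled G3 mock replicate 2 (0.0370 CPM), and AT5G26970 in labelled G3 mock replicate 1 (0.0597 CPM) and labelled G3 spermidine replicate 2 (0.0110 CPM). AT5G26970 in labelled WT mock replicate 1 was 0.410 CPM, with the others at 0.0435 to 0.104. In the same library AT3G44703 was 1.63 CPM, with the others at 0.743 to 0.884. AT2G14475 in labelled mtn1-1mtn2-1 mock replicate 3 was 1.61 CPM, with the others at 2.41 to 2.57. FH3 (AT4G15200) in labelled G3 spermidine replicate 2 was 11.5 CPM, with the others at 7.75 to 8.38.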

How the results depend on the processing

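The rule's limits set the size of the set: at least 100 counts in mtn1-1mtn2-5 spermidine left 33 members and 0 counts in WT left 26, while at least 25 counts gave 72, at most 20 in WT gave 67, the mock libraries gave 47 (44 shared) and the TPM table gave 53 (34 shared); leaving out 1 library gave 50 to 57. Between the mock mutants, members called ran from 46 to 47 when 1 library was left out and from 47 to 49 under the other alternatives, and none of the named members turned direction. For spermidine in mtn1-1mtn2-1, 0 calls became 4 with DESeq2, 1 with limma on TPM and 0 to 1 when 1 library was left out (1 without mtn1-1mtn2-1 spermidine replicate 3); the cause was not tested.

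In buds, members called between labelled G3 and labelled WT were 3 when only the 2 groups were fitted (fewer genes pass the filter), and 5 to 7 when 1 library was left out. With the names of the TPM table, labelled G3 against labelled mtn1-1mtn2-1 called 3 and labelled mtn1-1mtn2-1 against labelled WT called 6; limma on TPM, which carries those names, called 4 and 6. When 1 library was left out these were 6 in every case and 1 to 3 (1 without labelled WT mock replicate 2). The log2 fold changes of labelled G3 against labelled WT turned sign with the TPM table's names and with limma on log2(TPM + 1), by construction, to 5.09 and 0.0509 for AT1G63540 (both groups at or under the floor), -0.78 and -0.64 for AT2G14490, -1.28 and -1.001 for AT3G44703, 1.08 and 0.28 for AT4G05500, 5.41 and 1.05 for AT4G05715, -1.20 and -1.003 for AT4G15200, and 3.31 and 0.46 for AT5G26970. Replicate numbers did not pair the samples; with the replicate block, member calls were 47 between the mock mutants, 0 for spermidine, and 7, 2 and 6 in the bud comparisons. Depth limits what can be said of members at 3 fragments or fewer.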

Other observations

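AT5G35935, the gene most like the pseudogene member AT4G19239 (78.6% identity), was 0.270 CPM in WT mock, 16.9 in mtn1-1mtn2-1 mock and 14.9 in mtn1-1mtn2-5 mock, so it was low in WT and read in both mutants, while AT4G19239 was above the floor in the mtn1-1mtn2-5 seedlings and in no other seedling library. AT3G44120, an F-box gene 98.0% identical to the member AT2G07140, was 0.641, 1.60 and 3.82 CPM in the same groups.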
